A study of Mus musculus with 12 samples.

Results

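The comparison described here is Hp1bp3 knockdown (KD) against a scrambled control (Ctrl) in the hippocampus of DBA/2J (D2) mice, an inbred laboratory strain. It holds 6 of the 12 mRNA libraries of the series, 3 D2 KD and 3 D2 Ctrl, chosen by the strain and treatment labels. All 6 mice were males of 3 to 5 months. KD mice received AAV9-shRNA-Hp1bp3, an adeno-associated virus carrying a short hairpin RNA against Hp1bp3. Ctrl mice received AAV-scrmb-shRNA, the same kind of virus with a scrambled hairpin. The hippocampus was collected 6 weeks or more afterwards and RNA was made from the whole tissue, while the virus was injected into its dorsal portion, so each library can mix cells that took up the virus with cells that did not. No untreated D2 mice were analysed here. The other 6 libraries, 3 KD and 3 Ctrl of the strain C57BL/6J (B6), entered the model fit and are otherwise given only beside D2 values. The 15853 genes with enough counts to test, of 22236 in the table, were described.

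Hp1bp3 encodes heterochromatin protein 1 binding protein 3, a nuclear protein related to the linker histones that sit where DNA enters and leaves the nucleosome and that help to compact chromatin. The hippocampus holds the pyramidal neurons of the CA fields and the granule neurons of the dentate gyrus, together with interneurons, astrocytes, oligodendrocytes, microglia and vessels. Interferons are secreted antiviral signals. Their receptors activate STAT and IRF transcription factors, which switch on antiviral effectors, guanylate-binding GTPases, antigen presentation genes and the sensors of foreign nucleic acid.

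The 6 D2 libraries held 18.2 M to 37.5 M expected counts each. KD totals averaged 32.6 M ± 4.62 and Ctrl totals 25.9 M ± 7.40 (SD, n = 3 each; exact permutation p = 0.3, 2-sided). Replicates are separate mice by their sample names, and every pair within a group differed beyond sampling noise, with a chi-square per degree of freedom of 20.01 to 73.8 against 1.01 for 1 library split at random. The neuron marker score, the mean over 16 genes of log2(CPM + 1) where CPM scales each count by the library size, lay between 9.04 and 9.16 in all 6 libraries, so the labelled tissue is rich in neuronal RNA throughout. Markers of the choroid plexus, the fluid-secreting epithelium beside the hippocampus, split the libraries across the treatments. Normalized counts of Ttr, its most abundant marker, were 4226, 105311 and 136815 in Ctrl 1 to 3, 132772 and 806 in KD 1 and KD 2, and 137514 in the library labelled KD 3. Ctrl 1 and KD 2 thus held little choroid plexus RNA and the other 4 libraries held much, with list scores of 2.68, 5.96 and 6.08 in Ctrl 1 to 3, 6.06 and 2.01 in KD 1 and KD 2, and 6.29 in the library labelled KD 3. In bulk tissue, fewer cells of a type and less RNA per cell cannot be told apart. The running numbers in the sample names put the 3 Ctrl libraries before the 3 KD libraries. What these numbers stand for is not stated, so their order and the treatment cannot be told apart.

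The target was examined first. Hp1bp3 (ENSMUSG00000028759, protein coding, chr4:138216296-138244683, plus strand in GRCm38 as annotated by GENCODE M21) had normalized counts, the authors' counts divided by a library size factor, of 6871, 6504 and 7002 in Ctrl 1 to 3, 5337 and 4878 in KD 1 and KD 2, and 6941 in the library labelled KD 3. KD 1 stood at 78.6% and KD 2 at 71.8% of the Ctrl mean, below every Ctrl library. The library labelled KD 3 stood at 102%, inside the Ctrl range, so its target goes against its label. Over all 6 libraries the KD mean was 5719 ± 1083 against 6792 ± 258 (SD, n = 3 each), a difference of -1073.5 (exact permutation p = 0.3, 2-sided, where 3 against 3 cannot go below 0.1). Without the library labelled KD 3 the difference was -1685 (exact permutation p = 0.1, again the smallest possible). That library was set apart by this same Hp1bp3 level, so this p was fixed by leaving it out and is no evidence. The results below are therefore given with and without the library labelled KD 3. Where 6 normalized counts are given in short as Ctrl and KD, they stand in library order, and the last is the library labelled KD 3.

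**Figure D1:**
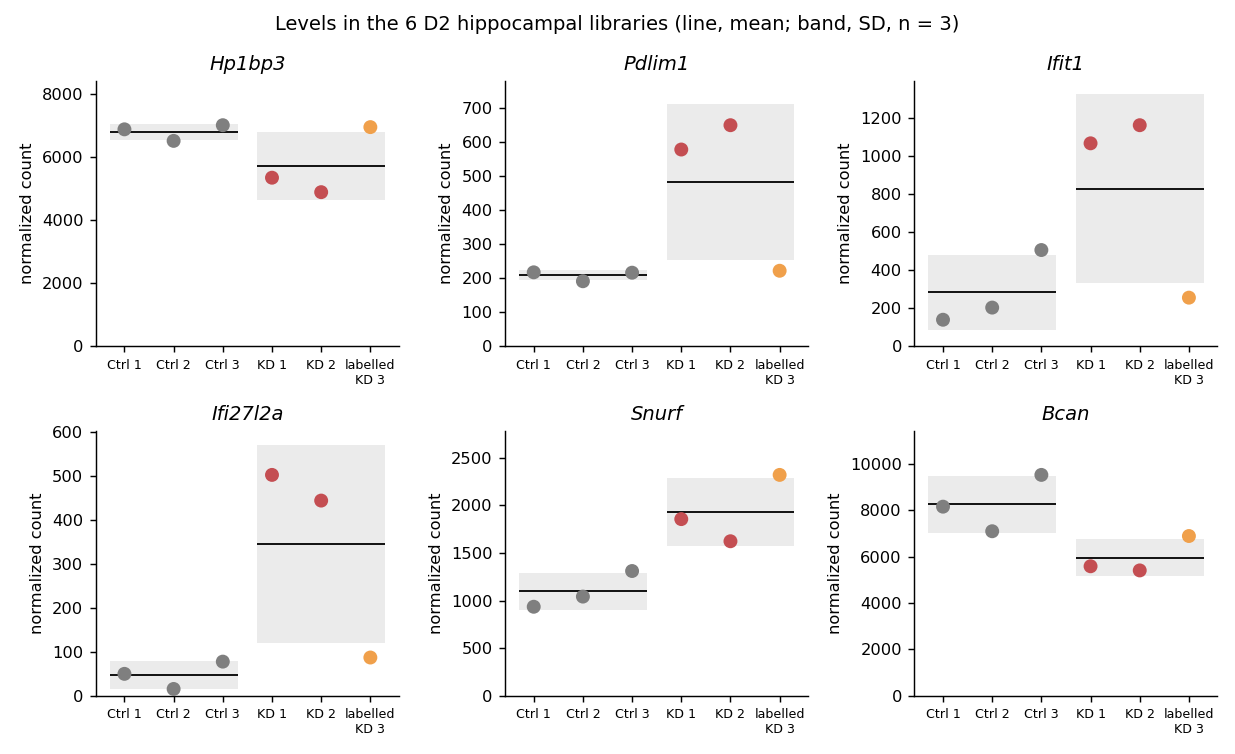
Normalized counts (y axis, from 0) of 6 genes in each D2 library (x axis), with Ctrl in grey, KD 1 and KD 2 in red and the library labelled KD 3 in orange; lines are group means and bands 1 SD (n = 3). For Hp1bp3, Pdlim1 and Ifit1 the library labelled KD 3 lies at or near the Ctrl level, whereas for Snurf it is the highest and for Bcan it lies with the other KD libraries below all Ctrl.

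The next question was which genes the knockdown altered across the transcriptome. No gene passed the edgeR quasi-likelihood test with Benjamini-Hochberg adjustment (0 of 15853 genes, 0.0%, at the 0.05 threshold). Adjusted p reached 0.479 at the lowest, while 264 genes were higher (1.67%) and 188 lower (1.19%) at an unadjusted p under 0.05. DESeq2 called 1 gene (0.00631%), Snurf. In 465 genes (2.93%) all 3 KD libraries lay above all 3 Ctrl libraries, and in 480 (3.03%) all lay below. The median absolute log2 fold change over all genes was 0.11, and 327 genes differed at least 2-fold.

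These counts depended on single libraries. Without the library labelled KD 3, KD 1 and KD 2 lay above all Ctrl libraries in 2009 genes (12.7%) and below in 1610 (10.2%). Fewer libraries overlap less by construction, since 2 against 3 libraries can be assigned in 10 ways and 3 against 3 in 20. The rise in non-overlapping genes is therefore by itself no sign of what that library holds. In the fit without it, 1236 genes had an unadjusted edgeR p under 0.05, and 1 gene, Pdlim1, was called by edgeR (0.00623% of 16064). DESeq2 then called 116 genes, 66 higher (0.411%) and 50 lower (0.311%). Leaving out any other library gave 0 edgeR calls and 0 to 8 DESeq2 calls. Among those fits Ctrl 3 stood apart, with 1019 genes at an unadjusted p under 0.05 in its absence against 247 to 380 for the rest.

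**Figure D2:**
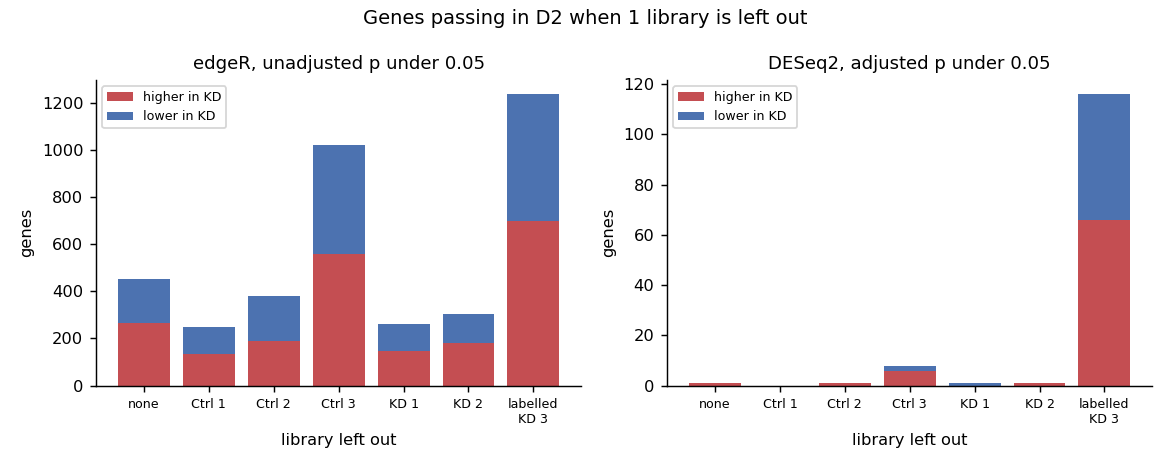
Numbers of genes (y axis, from 0) at an unadjusted edgeR p under 0.05 (left) and at a DESeq2 adjusted p under 0.05 (right) in D2, with no library or 1 library left out (x axis), split into genes higher and lower in KD. The bars for Ctrl 3 and for the library labelled KD 3 reach 1019 and 1236 on the left, and only the latter exceeds 8 on the right, at 116.

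The genes with the smallest p among those whose KD and Ctrl libraries did not overlap are described next, 10 in each direction. None passed adjustment over all genes (edgeR adjusted p = 1 for each). On the higher side the first was Snurf, an imprinted transcript that shares its locus with the splicing protein gene Snrpn. Its normalized counts were 935, 1042 and 1310.2 in Ctrl 1 to 3, 1856 and 1623 in KD 1 and KD 2, and 2319.99 in the library labelled KD 3. All KD libraries lay above all Ctrl libraries, the library labelled KD 3 being the highest, and the log2 fold change was 0.82 ± 0.14 (SE, unadjusted p = 0.000156; DESeq2 adjusted p = 0.0042). Snrpn, with a lower estimate, had 23328, 23123 and 20787 (Ctrl) and 18293, 21074 and 19970.5 (KD). The transcripts overlap, so how RSEM split reads between them is uncertain.

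Pdlim1, an adaptor that links alpha-actinin to signalling proteins (ENSMUSG00000055044, chr19:40221173-40271842, minus strand), had 216, 190.1 and 215 in Ctrl 1 to 3, 577 and 648 in KD 1 and KD 2, and 221 in the library labelled KD 3. KD 1 and KD 2 were far above all Ctrl libraries, while the library labelled KD 3 lay only just above the highest Ctrl library. Its log2 fold change was 1.22 ± 0.30 over all libraries and 1.57 without the library labelled KD 3 (edgeR adjusted p = 0.00192; DESeq2 4.25e-26). Slc38a5, a glutamine transporter, stood at 77.1, 53.10 and 73.2 (Ctrl) and 179, 555 and 105 (KD), with log2 fold changes of 2.04 ± 0.54 and 2.43 without the library labelled KD 3 (DESeq2 adjusted p = 0.000419). Ifi27l2a, an interferon-induced gene, is described with its group below.

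The remaining higher genes had log2 fold changes from 0.43 to 1.11. Tbc1d8, of the Rab GTPase regulators, had 489.96, 598 and 559 (Ctrl) and 802, 828 and 623 (KD) (log2 fold change 0.45 ± 0.12). In Tbc1d8 the library labelled KD 3 lay between the highest Ctrl library and the other KD libraries. Tapbpl, which edits the peptides loaded on MHC class I, had 231, 185 and 266 (Ctrl) and 328, 365 and 286 (KD) (0.51 ± 0.14). Sdk2, a synaptic adhesion molecule, had 545, 658 and 513 (Ctrl) and 981, 772 and 744 (KD) (0.55 ± 0.15). KD 1 was highest for Sdk2 and KD 2 for Tapbpl. Rhbdd1, a rhomboid protease, ranged over 305 to 351 in Ctrl and 404 to 474 in KD. Asb11, of the ankyrin repeat and SOCS box family, ranged over 14.4 to 27.4 in Ctrl and 43.2 to 57.6 in KD, and 4921536K21Rik over 22.2 to 29.2 in Ctrl and 38.7 to 54.8 in KD. Of these, Tbc1d8 and Tapbpl passed in DESeq2 without the library labelled KD 3 (adjusted p = 0.00162 and 0.0272).

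On the lower side the rule keeps every KD library below every Ctrl library, and in Hspa2, Phc1, E4f1 and Bcan the library labelled KD 3 lay nearer to the lowest Ctrl library than to the other KD libraries. Zfp771, a zinc finger gene, had 437, 447 and 426 in Ctrl 1 to 3, 323 and 295 in KD 1 and KD 2, and 305 in the library labelled KD 3 (log2 fold change -0.50 ± 0.11, unadjusted p = 0.000986). Vstm2a, a secreted immunoglobulin-domain protein, had 3584, 4062 and 3494 (Ctrl) and 2831, 2909.7 and 3163 (KD) (-0.32 ± 0.08). Emx2, a homeobox factor of the developing cortex and hippocampus, had 514, 466 and 453 (Ctrl) and 334, 332 and 388 (KD) (-0.44 ± 0.11). Of these, Vstm2a and Emx2 passed in DESeq2 without the library labelled KD 3 (adjusted p = 0.00513 and 0.0249).

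Chka, choline kinase of membrane lipid synthesis, ranged over 1886 to 1970.2 in Ctrl and 1386 to 1618 in KD (-0.34 ± 0.09). Hspa2, a heat shock protein of the HSP70 family, ranged over 1843 to 1997 in Ctrl and 1404 to 1719 in KD (-0.35 ± 0.09), and Phc1, a Polycomb repressive complex 1 subunit, over 1811 to 1862 in Ctrl and 1442 to 1705 in KD (-0.25 ± 0.08). These 2 passed in DESeq2 without the library labelled KD 3 (adjusted p = 0.00263 and 0.00263). E4f1 ranged over 707 to 772 in Ctrl and 565 to 653 in KD (-0.33 ± 0.09) and the kinase gene Srpk3 over 73.7 to 109 in Ctrl and 54.5 to 65.0 in KD (-0.63 ± 0.19). Tcf7l2, a Wnt pathway factor that in this region marks thalamic neurons, ranged over 296 to 423 in Ctrl and 215 to 289.7 in KD (-0.66 ± 0.19). Bcan, the tenth, is described with the perineuronal matrix.

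Of the 39 gene lists examined, the antiviral effectors of the interferon response had the largest median difference. These proteins, which block viral entry, translation and replication, had a median log2 fold change of 1.38 over 36 genes tested, against 0.00 over all genes, and 35 of the 36 had a higher estimate in KD, against 51.2% of all genes. Even so 2, Ifi27l2a and Oas3, had all KD libraries above all Ctrl libraries, against 2.93% of all genes. In edgeR 16 were higher at an unadjusted p under 0.05, against 1.67% of all genes, and 0 passed adjustment. Without the library labelled KD 3 the median was 1.74, and KD 1 and KD 2 lay above all Ctrl libraries in 33 of 36 (background 12.7%). In that fit edgeR called 0 of the effectors. DESeq2, whose fit without this library was chosen after seeing the data, called 8, while it called 0.411% of all genes higher.

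The libraries fell in an order that crossed the labels. The antiviral score was 2.29, 2.22 and 3.22 in Ctrl 1 to 3, 3.79 and 4.27 in KD 1 and KD 2, and 2.55 in the library labelled KD 3. Among Ctrl libraries Ctrl 3 was highest in 35 of 36 effectors, against 43.6% of all genes, and among KD libraries the one labelled KD 3 was lowest in 36 of 36, against 35.7% of all genes. It lay within the Ctrl range in 32, against 63.5% of all genes. Hp1bp3 had a normalized count of 7002 in Ctrl 3, the highest of the 6 libraries, and of 6941 in the library labelled KD 3. The choroid plexus score was high in KD 1 and low in KD 2. What set the order of the antiviral score was not tested. Leaving out each of the 6 libraries in turn gave effector medians from 0.89 without KD 2 to 1.96 without Ctrl 3, and the same range is given below for the other lists as the leave-one-out range.

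Ifi27l2a had 49.8, 15.4 and 77.7 in Ctrl 1 to 3, 503 and 444 in KD 1 and KD 2, and 87.0 in the library labelled KD 3 (chr12:103442167-103443680, minus strand). Its log2 fold change was 2.81 ± 0.74 (SE, unadjusted p = 0.003) and 3.27 without the library labelled KD 3 (edgeR adjusted p = 0.366, DESeq2 adjusted p = 0.000163). Oas3, which makes the messenger that activates RNase L, had 53.6, 37.7 and 68.8 in Ctrl 1 to 3, 128 and 245 in KD 1 and KD 2, and 74.6 in the library labelled KD 3. In both genes the library labelled KD 3 lay just above Ctrl 3 and far below KD 1 and KD 2.

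In the following members, chosen after their values were seen, the groups overlapped only through the library labelled KD 3. Ifitm3, a membrane protein that blocks virus entry, had 463, 337 and 733 in Ctrl 1 to 3, 1574 and 1670.3 in KD 1 and KD 2, and 580.5 in the library labelled KD 3 (log2 fold change 1.31 ± 0.42; 1.66 without the library labelled KD 3, DESeq2 adjusted p = 0.00184). Ifit1, which binds viral RNA lacking the host cap methylation, had 138, 202 and 505 in Ctrl 1 to 3, 1066 and 1161 in KD 1 and KD 2, and 254 in the library labelled KD 3 (1.55 ± 0.60; 1.98, 0.0151). Isg15, a ubiquitin-like modifier, had 48.0, 60.0 and 174 in Ctrl 1 to 3, 332 and 402 in KD 1 and KD 2, and 73.6 in the library labelled KD 3 (1.51 ± 0.63; 1.96, 0.0257). KD 1 and KD 2 were thus alike and above all Ctrl libraries in each, and Ctrl 3 was the highest Ctrl library in each. Lgals3bp, a secreted glycoprotein, had 752, 1074 and 2319 (Ctrl) and 4922, 4286 and 1845 (KD), Xaf1 had 505, 403 and 1004 (Ctrl) and 2045, 2383 and 587 (KD) and Bst2, the tether that holds budding virus at the membrane, had 118, 154 and 382 (Ctrl) and 801, 621 and 274 (KD).

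**Figure D3:**
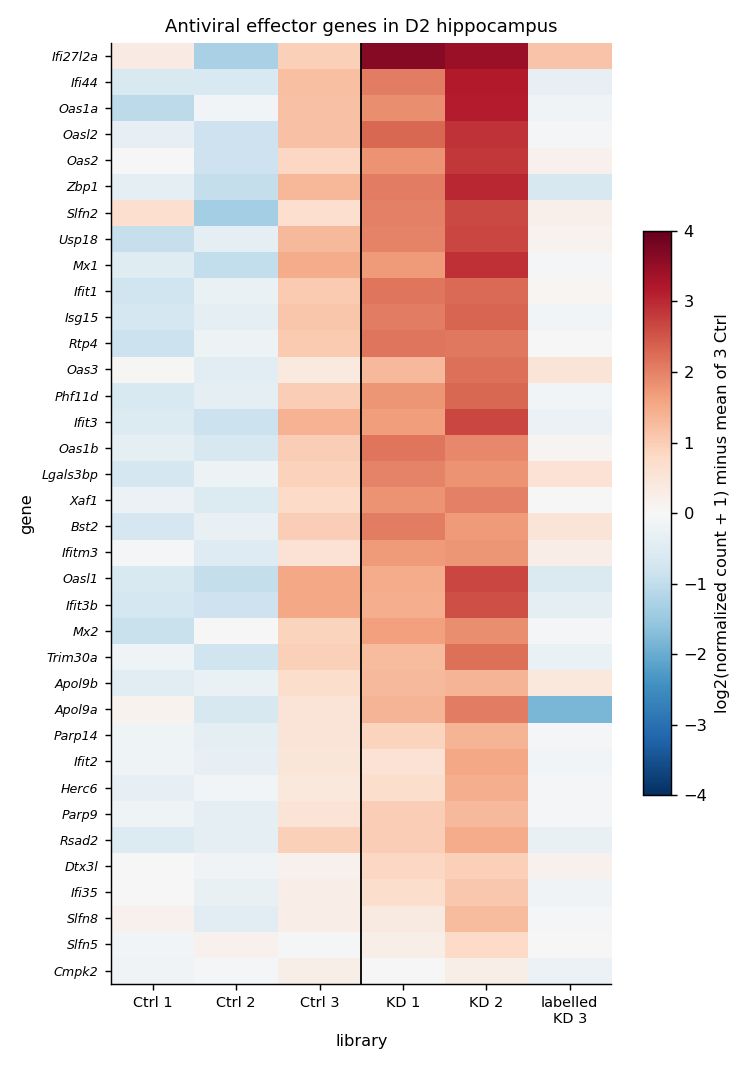
Antiviral effector genes (rows, ordered by D2 log2 fold change) in the 6 D2 libraries (columns). Colour is log2(normalized count + 1) minus the mean of the 3 Ctrl libraries, red for higher and blue for lower. KD 1 and KD 2 are red for most genes, Ctrl 3 is paler red, and the library labelled KD 3 is near white for most.

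Promoters of effectors are shown as background. The list was chosen as interferon-stimulated genes, so a high share of interferon sites follows from that choice and is no result of these libraries. The sequences are those of RefSeq in GRCm38.p6, the B6 reference, from 250 bases before to 50 after the transcription start, 5′ to 3′ on the gene's strand, and D2 differences from it were not analysed here. The interferon-stimulated response element (ISRE) was searched on both strands as GAAA, any 2 bases and GAAA, which reads as TTTC, any 2 bases and TTTC on the other strand. It was present in 13 of the 25 effector promoters with an entry (of 36 genes tested), against 3.04% of 11729 promoters of tested genes, and in 9 of 10 promoters of the GTPases described below. The STAT site GAS, searched on both strands as TTC, any 3 bases and GAA, was present in 5 of the 25, against 6.99%. A promoter could hold both, and a match is one of letters only. Capitals mark ISRE matches in 5 promoters below that hold one, and Pdlim1, with no match in this window, is printed for comparison. Xaf1 and Lgals3bp, also higher in KD 1 and KD 2, had no match in this window either.
Ifitm3, chr7:141010695-141010994, minus strand: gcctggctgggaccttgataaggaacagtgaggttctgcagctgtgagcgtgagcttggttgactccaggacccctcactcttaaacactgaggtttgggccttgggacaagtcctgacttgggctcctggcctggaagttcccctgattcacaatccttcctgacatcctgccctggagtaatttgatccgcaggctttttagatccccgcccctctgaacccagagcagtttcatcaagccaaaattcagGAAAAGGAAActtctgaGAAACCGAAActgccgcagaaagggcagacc
Bst2, chr8:71537423-71537722, minus strand: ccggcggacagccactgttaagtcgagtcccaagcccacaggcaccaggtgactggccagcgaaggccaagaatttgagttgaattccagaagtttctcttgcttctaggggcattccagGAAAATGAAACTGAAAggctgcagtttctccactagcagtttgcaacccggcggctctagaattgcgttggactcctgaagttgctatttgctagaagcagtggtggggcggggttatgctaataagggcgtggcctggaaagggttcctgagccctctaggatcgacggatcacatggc
Ifit1, chr19:34640639-34640938, plus strand: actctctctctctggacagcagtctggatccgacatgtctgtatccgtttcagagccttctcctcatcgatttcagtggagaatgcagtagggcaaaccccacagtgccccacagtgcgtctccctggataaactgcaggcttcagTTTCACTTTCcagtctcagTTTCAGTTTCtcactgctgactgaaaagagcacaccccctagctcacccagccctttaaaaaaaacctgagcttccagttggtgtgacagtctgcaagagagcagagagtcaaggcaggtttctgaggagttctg
Isg15, chr4:156200769-156201068, minus strand: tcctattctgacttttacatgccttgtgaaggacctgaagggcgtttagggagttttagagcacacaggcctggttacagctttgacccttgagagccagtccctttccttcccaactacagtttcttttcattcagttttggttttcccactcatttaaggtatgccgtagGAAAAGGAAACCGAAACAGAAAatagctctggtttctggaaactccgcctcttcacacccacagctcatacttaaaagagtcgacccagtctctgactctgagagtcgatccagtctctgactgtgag
Oas3, chr5:120777610-120777909, minus strand: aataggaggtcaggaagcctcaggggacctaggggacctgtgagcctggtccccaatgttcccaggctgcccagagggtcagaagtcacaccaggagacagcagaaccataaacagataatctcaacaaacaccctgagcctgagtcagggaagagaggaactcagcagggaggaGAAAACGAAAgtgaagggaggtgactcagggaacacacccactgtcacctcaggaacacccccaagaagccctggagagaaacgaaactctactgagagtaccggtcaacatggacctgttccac
Pdlim1, chr19:40271567-40271866, minus strand: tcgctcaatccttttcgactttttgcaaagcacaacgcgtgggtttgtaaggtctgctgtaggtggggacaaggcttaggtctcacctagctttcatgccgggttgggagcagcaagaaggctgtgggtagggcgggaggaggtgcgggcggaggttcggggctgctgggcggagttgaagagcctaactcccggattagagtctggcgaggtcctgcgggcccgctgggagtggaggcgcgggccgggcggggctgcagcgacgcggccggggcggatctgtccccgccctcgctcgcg

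Irf7 and Irf9, transcription factors of the pathway chosen after their values were seen, were likewise highest in KD 1 and KD 2, with Ctrl 3 next. Irf7, the master regulator of type I interferon production, had 107, 128 and 262 in Ctrl 1 to 3, 662 and 842 in KD 1 and KD 2, and 144 in the library labelled KD 3 (log2 fold change 1.73 ± 0.64; 2.18 without the library labelled KD 3, DESeq2 adjusted p = 0.00626). Irf9, a subunit of the complex that binds the ISRE, had 487, 406 and 793 (Ctrl) and 1332, 959.9 and 548 (KD). Receptors and kinases were nearer to 0. Over the 16 genes of receptors and signalling the median was 0.10, 0.17 without the library labelled KD 3, with a leave-one-out range of -0.05 without Ctrl 2 to 0.31 without Ctrl 3, and Jak2 and Irf3 had estimates of -0.15 and -0.17. 0 of the 16 had all KD libraries above all Ctrl libraries (2.93% of all genes), and 5 had KD 1 and KD 2 above (12.7% of all genes).

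Sensors of foreign nucleic acid had a median log2 fold change of 0.44 over 13 genes (0.63 without the library labelled KD 3, leave-one-out range 0.22 without KD 2 to 0.63 without the library labelled KD 3), with 11 estimates higher and 6 genes above all Ctrl libraries in KD 1 and KD 2, against 51.2% and 12.7% of all genes. Dhx58, a helicase of the RIG-I family, had 48.0, 42.8 and 85.4 in Ctrl 1 to 3, 178 and 245 in KD 1 and KD 2, and 55.5 in the library labelled KD 3 (1.44 ± 0.53; 1.84, DESeq2 adjusted p = 0.0145). Mb21d1, which encodes the DNA sensor cGAS, had 58.3, 73.7 and 45.5 (Ctrl) and 82.2, 78.9 and 77.5 (KD) and was the sensor in which all 3 KD libraries lay above Ctrl (0.44 ± 0.21, unadjusted p = 0.0605).

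Guanylate-binding and immunity-related GTPases, which attack the vacuoles of intracellular pathogens, had 17 of 17 estimates higher and a median of 0.65 (0.95 without the library labelled KD 3, leave-one-out range 0.13 without KD 2 to 1.30 without Ctrl 3). None separated KD from Ctrl over all libraries, and 5 lay above Ctrl without the library labelled KD 3, against 12.7% of all genes. Gbp3 had 253, 169.6 and 462 in Ctrl 1 to 3, 712 and 942 in KD 1 and KD 2, and 201 in the library labelled KD 3 (DESeq2 adjusted p = 0.0368 without the library labelled KD 3). Among these genes Ctrl 3 was high, and its score (3.30) lay above that of KD 1 (3.23).

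MHC class I presentation had 17 of 18 estimates higher and a median of 0.53 (0.74 without the library labelled KD 3, leave-one-out range 0.36 without KD 2 to 0.87 without Ctrl 3, with 12 genes above all Ctrl in KD 1 and KD 2, against 12.7% of all genes). B2m, the light chain of all class I molecules, had 2582, 2134 and 4707 in Ctrl 1 to 3, 6454 and 7983 in KD 1 and KD 2, and 2291 in the library labelled KD 3 (0.83 ± 0.47). H2-D1 and H2-K1, heavy chains with close paralogs among which reads can be split, had 2377, 1482 and 4828 (Ctrl) and 7389.8, 8567 and 2094 (KD) and then 1802, 1203 and 3998 (Ctrl) and 6060.3, 6463 and 1696 (KD). In these 3 genes KD 1 and KD 2 were the highest libraries and Ctrl 3 was next. Erap1, the aminopeptidase that trims peptides for class I, separated all KD from all Ctrl libraries, with 417, 397 and 406 (Ctrl) and 556, 601 and 484 (KD) (0.43 ± 0.19, unadjusted p = 0.0419). H2-Q6 was listed at 39.5 in Ctrl 1 and at 0 in the other 5 libraries. Class II presentation had a median of 0.06 over 7 genes (0.03 without the library labelled KD 3, leave-one-out range -0.18 without Ctrl 2 to 0.61 without Ctrl 3), none separating the groups.

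**Figure D4:**
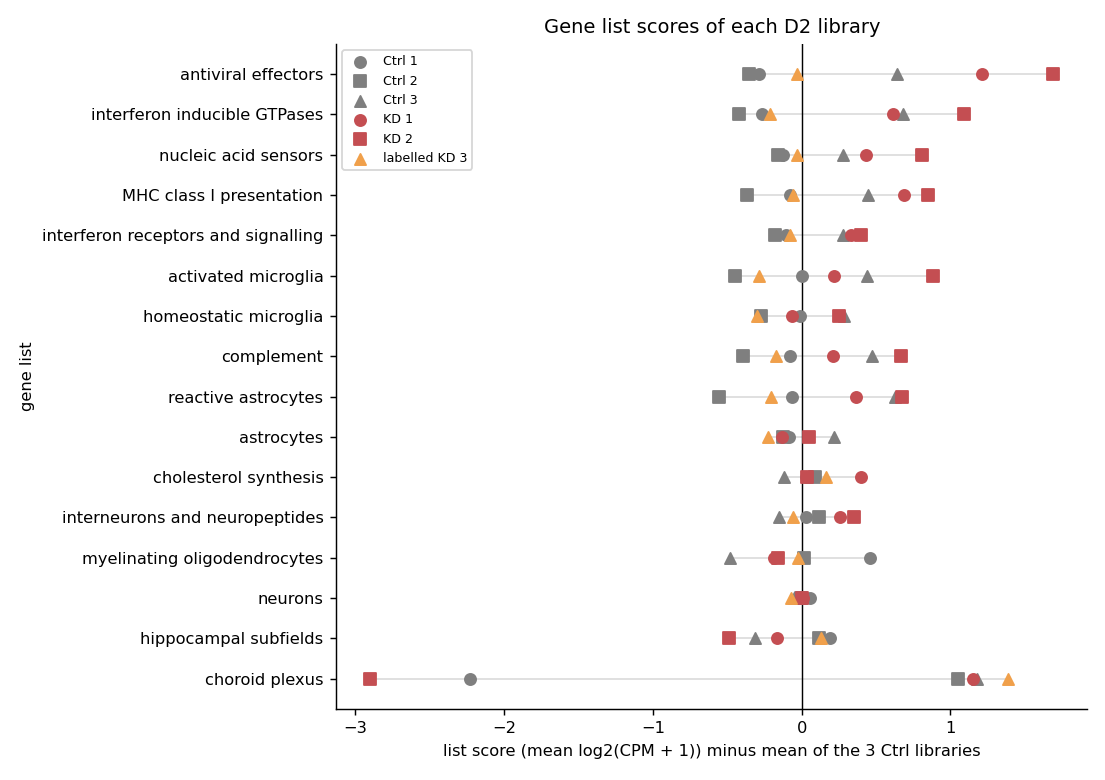
Scores of 16 gene lists (rows) in each D2 library, as the mean log2(CPM + 1) over the list minus the mean of the 3 Ctrl libraries (x axis, log2 units). In the 4 uppermost lists KD 2 is furthest right, the library labelled KD 3 lies left of Ctrl 3, and Ctrl 3 is the rightmost Ctrl library; the choroid plexus list separates Ctrl 1 and KD 2 from the other 4.

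Immune cells and glia were examined through their markers. Activation genes of microglia, the brain's macrophages, had 21 of 25 estimates higher and a median of 0.34 (0.62 without the library labelled KD 3, leave-one-out range -0.01 without KD 2 to 0.65 without Ctrl 3), and 0 separated the groups. Scores were 3.64, 3.19 and 4.08 in Ctrl 1 to 3, 3.86 and 4.52 in KD 1 and KD 2, and 3.35 in the library labelled KD 3, so KD 2 was highest and Ctrl 3 lay above KD 1. Fcgr4, an activating antibody receptor, had 20.7, 6.85 and 27.7 (Ctrl) and 46.4, 79.7 and 15.3 (KD) (unadjusted p = 0.0517), and Ctss, a lysosomal protease, had 3699.6, 2715 and 5239 (Ctrl) and 5469.8, 7004 and 2803 (KD). Homeostatic microglial genes lay near 0, where 6 of 15 estimates were higher, the median was -0.07, without the library labelled KD 3 it was 0.08, and its leave-one-out range was -0.23 without KD 2 to 0.16 without Ctrl 3.

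In 3 homeostatic genes every KD library lay below every Ctrl library, against 3.03% of all genes. P2ry12, the ADP receptor that guides microglial processes, had 1055, 1209 and 1319 in Ctrl 1 to 3, 982 and 1019.9 in KD 1 and KD 2, and 807 in the library labelled KD 3 (-0.35 ± 0.20, unadjusted p = 0.115). Siglech had 371, 279 and 334 (Ctrl) and 272, 271 and 276 (KD) and Sall1, a microglial identity factor, had 1135, 995 and 1095 (Ctrl) and 969.98, 967 and 959 (KD). Csf1r, whose product microglia need to survive, had 3922, 3073 and 4899 (Ctrl) and 3956, 4675 and 3425 (KD) (0.02 ± 0.20) and Aif1 had 172, 123 and 261 (Ctrl) and 226, 333 and 159 (KD) (0.36 ± 0.34) with overlapping groups.

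Complement genes had a median of 0.36 (0.57 without the library labelled KD 3, leave-one-out range 0.02 without KD 2 to 0.75 without Ctrl 3) with 12 of 17 estimates higher. C4b, a classical pathway component made by glia, had 6306, 3025 and 11698 in Ctrl 1 to 3, 10366 and 15980.2 in KD 1 and KD 2, and 4808 in the library labelled KD 3 (0.57 ± 0.53), and C2 separated the groups with 55.5, 37.7 and 63.2 (Ctrl) and 86.5, 86.8 and 66.9 (KD) (0.61 ± 0.55). Reactive astrocyte genes had a median of 0.23 (0.33 without the library labelled KD 3, leave-one-out range 0.02 without KD 2 to 0.69 without Ctrl 3) with 17 of 21 higher and 0 separating the groups. KD 1 and KD 2 lay above all Ctrl libraries in 5 of the 21, against 12.7% of all genes. List scores were 3.55, 3.06 and 4.24 (Ctrl) and 3.98, 4.29 and 3.41 (KD), so Ctrl 3 lay above KD 1. Serpina3n, a protease inhibitor, had 4533, 3943 and 7724 (Ctrl) and 8261, 9971 and 4332 (KD), and Vim, an intermediate filament, had 3622, 1573 and 5062 (Ctrl) and 5193, 6171 and 1996 (KD). In both, Ctrl 3 was the highest Ctrl library and the library labelled KD 3 lay within the Ctrl range. General astrocyte markers had a median of -0.12 (-0.06, range -0.26 to 0.02), none separating the groups. Chemokines had a median of 0.24 (0.38, range -0.15 to 1.07), and 2 of the 17 lay lower in all KD libraries, against 3.03% of all genes, Cxcl14 with 1939, 1946 and 2100.1 (Ctrl) and 1921, 1782 and 1633 (KD) and Cxcl5 with 18.8, 13.7 and 27.7 (Ctrl) and 6.33, 13.4 and 9.56 (KD).

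Markers of neurons and of hippocampal regions show what the dissected tissue held. All 20 of the 20 subfield markers were detected, with a median of -0.04, -0.23 without the library labelled KD 3 and a leave-one-out range of -0.23 without the library labelled KD 3 to 0.03 without Ctrl 2, and scores of 5.50, 5.42 and 4.99 in Ctrl 1 to 3, 5.14 and 4.81 in KD 1 and KD 2, and 5.43 in the library labelled KD 3. Prox1, the defining factor of dentate granule neurons, had 1539, 1006 and 254 in Ctrl 1 to 3, 470.2 and 212 in KD 1 and KD 2, and 1079 in the library labelled KD 3. It was low in Ctrl 3, KD 1 and KD 2 and high in Ctrl 1, Ctrl 2 and the library labelled KD 3. The antiviral score divided the libraries in the same way, and Hp1bp3 itself was highest in Ctrl 3. Stxbp6, a SNARE regulator on this list, lay lower in all KD libraries, with 4294, 3481 and 2919.98 (Ctrl) and 2172, 2147 and 2862 (KD) (-0.57 ± 0.18, unadjusted p = 0.0102), while Dock10 had 3059, 2299 and 1796 (Ctrl) and 1438, 1296 and 2475 (KD). Gabrd, the extrasynaptic GABA receptor subunit abundant in granule neurons, had 844, 617 and 447 in Ctrl 1 to 3, 236 and 339 in KD 1 and KD 2, and 733 in the library labelled KD 3 (-0.54 ± 0.38; -1.14 without the library labelled KD 3, DESeq2 adjusted p = 0.0414). What part the makeup of the dissected tissue had in the interferon values was not tested.

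Among 18 interneuron and neuropeptide genes 15 estimates were higher, with a median of 0.15 both with and without the library labelled KD 3 and a leave-one-out range of 0.01 without Ctrl 3 to 0.23 without Ctrl 2. Npy, neuropeptide Y, had 792, 846 and 994 in Ctrl 1 to 3, 1926 and 3075 in KD 1 and KD 2, and 746 in the library labelled KD 3 (1.13 ± 0.40, unadjusted p = 0.0174; 1.52 without the library labelled KD 3, DESeq2 adjusted p = 9.15e-05). The library labelled KD 3 was the lowest of the 6 and KD 1 and KD 2 were the highest. Penk, the enkephalin precursor, had 564, 729.8 and 2082 in Ctrl 1 to 3, 4288 and 2223 in KD 1 and KD 2, and 563 in the library labelled KD 3 (1.06 ± 0.72), where Ctrl 3 lay near KD 2. Sst, somatostatin, had 2419, 2904 and 2192 (Ctrl) and 2561, 3071 and 2635 (KD) (0.14 ± 0.15) with overlapping groups.

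Myelinating oligodendrocyte genes had 1 of 16 estimates higher and a median of -0.17 (-0.24 without the library labelled KD 3, leave-one-out range -0.41 without Ctrl 3 to 0.07 without Ctrl 1), and 0 separated the groups. Mbp, myelin basic protein, had 78361, 53952 and 42603 in Ctrl 1 to 3, 42115 and 40393 in KD 1 and KD 2, and 52787 in the library labelled KD 3 (-0.37 ± 0.21). Ctrl 1 was far above the rest and Ctrl 3 was as low as KD 1. Oligodendrocyte precursor markers had a median of -0.16 (-0.19, range -0.23 to -0.06) over 7 genes. General neuron markers had a median of -0.03 (-0.01, range -0.06 to 0.01). Camk2a, the kinase of excitatory neurons, was the member with an unadjusted p under 0.05, with 143196, 133359.9 and 115046 (Ctrl) and 107202, 92881 and 121378 (KD) (-0.28 ± 0.12, unadjusted p = 0.0431), and its groups overlapped.

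Cholesterol synthesis genes differed in a way that did not follow the interferon order. Of 22 genes 20 had a higher estimate, with a median log2 fold change of 0.20 (0.24 without the library labelled KD 3, leave-one-out range 0.06 without KD 1 to 0.28 without KD 2), and 4 had all KD libraries above all Ctrl libraries, against 2.93% of all genes. Among them, Insig1, which holds the sterol sensor in the endoplasmic reticulum, had 1865, 2044 and 1545 (Ctrl) and 2723, 2173 and 2510.3 (KD) (log2 fold change 0.44 ± 0.19, unadjusted p = 0.0426). Fdft1, squalene synthase, had 2274, 2342 and 2126 (Ctrl) and 3532, 2552 and 2595 (KD) and Dhcr7, of the last step, had 1106, 1187 and 1239 (Ctrl) and 1421, 1262 and 1294 (KD). KD 1 was the highest library in each, and the library labelled KD 3 lay above all Ctrl libraries in each. The list scores of 5.47, 5.53 and 5.32 in Ctrl 1 to 3, 5.84 and 5.47 in KD 1 and KD 2, and 5.60 in the library labelled KD 3 were led by KD 1, and KD 2 lay within the Ctrl range.

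Of 12 p53 response genes 11 had a higher estimate, with a median of 0.10 (0.14 without the library labelled KD 3, leave-one-out range -0.03 without KD 2 to 0.17 without KD 1). Cdkn1a, the cell cycle inhibitor p21, had 224, 303 and 256 in Ctrl 1 to 3, 668 and 793 in KD 1 and KD 2, and 234 in the library labelled KD 3 (1.12 ± 0.39, unadjusted p = 0.0162; 1.49 without the library labelled KD 3, DESeq2 adjusted p = 0.000419). KD 1 and KD 2 were more than 2 times the highest Ctrl library and the library labelled KD 3 was at Ctrl level. Sesn2, a stress-induced inhibitor of growth signalling, separated all KD from all Ctrl libraries with 393, 349 and 365 (Ctrl) and 444, 471 and 401 (KD) (0.25 ± 0.11, unadjusted p = 0.0406).

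Imprinted genes, expressed from 1 parental copy, had a median of 0.06 over 27 genes (0.08 without the library labelled KD 3, leave-one-out range -0.03 without Ctrl 1 to 0.15 without Ctrl 2). Of these, 2 separated the groups in opposite directions, Snurf above and Zrsr1 below, against 2.93% above and 3.03% below among all genes. Zrsr1, a splicing factor gene, had 2659, 2434 and 2525 (Ctrl) and 2012, 2179 and 2303 (KD) (-0.23 ± 0.07, unadjusted p = 0.00886). Peg10, a paternally expressed gene of retrotransposon origin, had 715, 1101 and 802 in Ctrl 1 to 3, 2379.6 and 1998 in KD 1 and KD 2, and 668 in the library labelled KD 3 (0.95 ± 0.37; 1.33 without the library labelled KD 3, DESeq2 adjusted p = 4.25e-06). Peg10 thus shared the pattern of Pdlim1 and Cdkn1a, with KD 1 and KD 2 far above Ctrl, and Snurf did not.

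The study drew on 5 genes of synaptic plasticity, which it chose on these samples, so their direction is no independent evidence. In D2, 4 of the 5 had a lower estimate, while 51.2% of all genes had a higher one. All KD libraries lay below all Ctrl libraries in 2 of the 5, against 3.03% of all genes. Bcan, brevican of the perineuronal matrix, had 8148, 7089 and 9517 in Ctrl 1 to 3, 5579 and 5400.1 in KD 1 and KD 2, and 6883 in the library labelled KD 3 (-0.47 ± 0.14, unadjusted p = 0.00706; -0.58 without the library labelled KD 3, DESeq2 adjusted p = 0.0329). Dlg4, which makes the scaffold PSD-95, had 24178, 22545 and 23790.3 (Ctrl) and 22449.8, 20604 and 21594 (KD) (-0.12 ± 0.09, unadjusted p = 0.221), where the groups were barely apart. Jph3, junctophilin, had 9629.9, 8779 and 9290.2 in Ctrl 1 to 3, 7739.8 and 6998 in KD 1 and KD 2, and 9186 in the library labelled KD 3 (-0.21 ± 0.10, unadjusted p = 0.061), with only the library labelled KD 3 inside the Ctrl range. Shisa9, an AMPA receptor partner, had 2181, 2282 and 1666 (Ctrl) and 1309, 2072 and 1961 (KD) (-0.19 ± 0.19). Arc, the activity-regulated cytoskeletal gene, had 2806, 1855 and 2159 (Ctrl) and 2445, 1653 and 4272 (KD) (0.30 ± 0.30), a value set by the library labelled KD 3, without which it was -0.15.

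Medians of the excitability and synapse lists lay from -0.09 to 0.00. Potassium channels had a median of -0.03 over 44 genes (-0.15 without the library labelled KD 3, leave-one-out range -0.20 without Ctrl 3 to 0.03 without Ctrl 1). Of these, 2 lay above and 1 below all Ctrl libraries, against 2.93% and 3.03% of all genes. Kcnk3, a leak channel, had 432, 385 and 495 (Ctrl) and 551, 661 and 524 (KD) (0.41 ± 0.13, unadjusted p = 0.0109), Kcnma1, the large-conductance calcium-activated channel, had 1505, 1405 and 1264 (Ctrl) and 1600.5, 1535 and 1576 (KD) (0.18 ± 0.24), and Hcn2, a pacemaker channel, had 4439, 3882 and 4138 (Ctrl) and 3687, 3698 and 3822 (KD) (-0.15 ± 0.07). Sodium and calcium channels had a median of -0.06 (-0.13, range -0.20 to 0.01). Cacna1h, a T-type calcium channel, had 7019, 6503 and 6053 (Ctrl) and 10241, 7045 and 7098 (KD), and the auxiliary subunit gene Cacna2d3 had 3699, 3616 and 3229.5 (Ctrl) and 3743, 4179 and 3725 (KD). Perineuronal matrix genes had a median of -0.09 (-0.12, range -0.14 to -0.02). Of the 14, Bcan and Vcan (734, 752 and 731 (Ctrl) and 653, 699 and 667 (KD)) lay below all Ctrl libraries, against 3.03% of all genes. Medians for glutamate receptors and scaffolds, GABA-A receptors and presynaptic release were -0.05, -0.07 and 0.00 (-0.09, -0.05 and 0.04 without the library labelled KD 3), with leave-one-out ranges of -0.13 to -0.01, -0.13 to -0.02 and -0.01 to 0.04.

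Chromatin partners of Hp1bp3 and the microRNA machinery showed small differences. Over 15 heterochromatin and linker histone genes the median was -0.05 (-0.03 without the library labelled KD 3, leave-one-out range -0.10 without KD 1 to -0.01 without Ctrl 3). Suv39h2, a histone H3 lysine 9 methyltransferase, lay above Ctrl in all KD libraries with 161, 159 and 145 (Ctrl) and 181, 186 and 190.3 (KD) (0.26 ± 0.12, unadjusted p = 0.0599), and Ehmt2, another such enzyme, lay below with 6099, 6095 and 6460.1 (Ctrl) and 6034, 5843 and 5658 (KD) (-0.09 ± 0.08). Cbx5, HP1 alpha, had 8323, 9141 and 8999.6 (Ctrl) and 8329, 7866 and 9305 (KD). The 5 tested genes of microRNA processing, among them Drosha, Dgcr8 and Dicer1, had estimates from -0.09 to 0.03, none separating the groups.

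The other lists gave these medians, with the value without the library labelled KD 3 and the leave-one-out range in parentheses: circadian clock -0.08 (-0.23, range -0.23 to -0.03), glucocorticoid response 0.12 (0.27, range -0.06 to 0.27), immediate early genes 0.08 (-0.01, range -0.01 to 0.18), unfolded protein and heat shock response -0.10 (-0.08, range -0.17 to -0.03), endothelium and pericytes -0.06 (-0.01, range -0.10 to 0.06), meninges 0.18 (0.24, range 0.15 to 0.36), thalamus and striatum -0.13 (-0.11, range -0.24 to 0.04), blood 0.38 (-0.13, range -0.13 to 0.65), lymphocytes 0.12 (0.28, range -0.14 to 0.46) and choroid plexus 0.13 (-0.33, range -0.43 to 0.67). By CPM, Tef, a clock output factor, lay lower in all KD libraries, with 12069, 11107 and 10754 (Ctrl) and 6713, 8780.3 and 10835 (KD) (-0.36 ± 0.16, unadjusted p = 0.0473), though by normalized counts the library labelled KD 3 overlapped with Ctrl 3. Fkbp5, a glucocorticoid-induced chaperone, lay higher with 2083, 2128 and 1991 (Ctrl) and 2972, 2383 and 2237 (KD) (0.29 ± 0.17). The marker genes Kcnj8 (vessels, 92.5 to 115 in Ctrl and 86.1 to 90.0 in KD), Col1a2 (meninges, 522 to 963 in Ctrl and 989 to 1254 in KD) and Synpo2 (thalamus, 276 to 312 in Ctrl and 232 to 272 in KD) also separated the groups, Col1a2 higher and the other 2 lower. The 6 tested lymphocyte markers were scarce, with scores of 0.92 to 1.10 in Ctrl and 0.94 to 1.25 in KD. Hba-a1, a globin that marks blood, was highest in the library labelled KD 3, at 7969 against 3101 to 4829 in Ctrl.

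**Figure D5:**
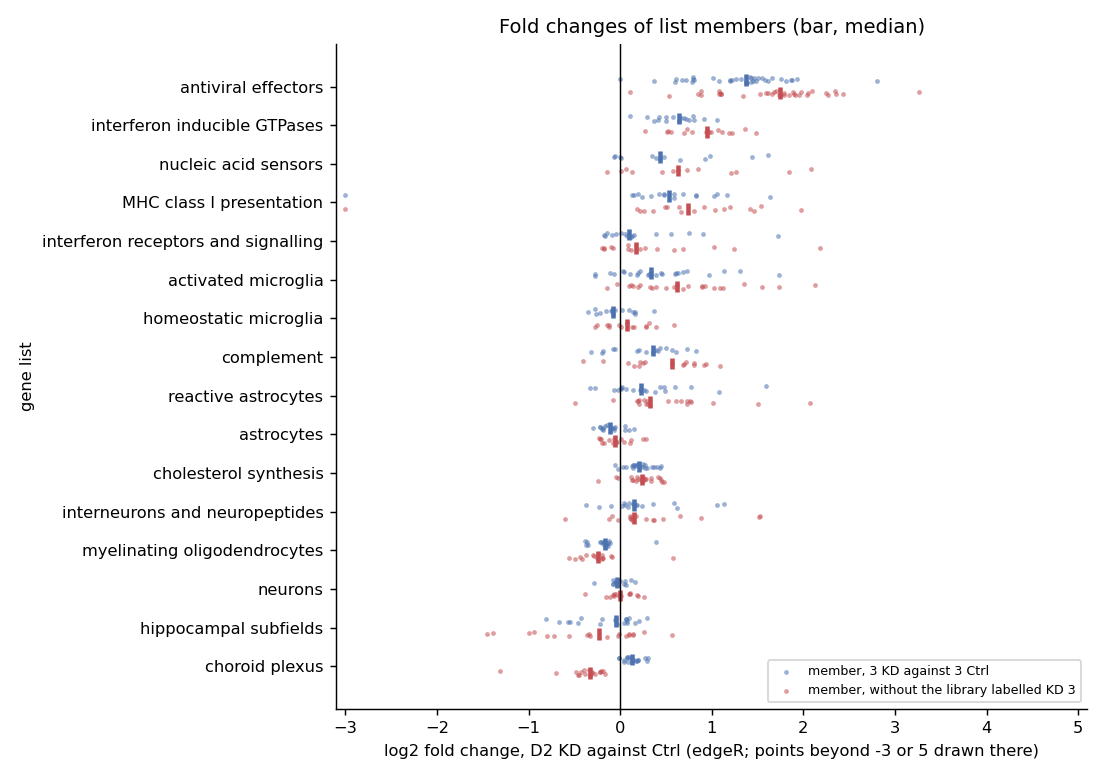
Log2 fold changes of list members in D2 (x axis; 1 point per gene, edgeR) for 16 gene lists (rows), from all 6 libraries in blue and without the library labelled KD 3 in red, with medians as bars; H2-Q6 lies beyond -3 and is drawn there. The median of the antiviral effectors lies at 1.38 and 1.74, that of cholesterol synthesis at 0.20 and 0.24, and that of the neurons at -0.03 and -0.01.

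The 116 genes that DESeq2 called once the library labelled KD 3 was left out were examined further, a set chosen after its values were seen. Of the 66 higher genes, 12 were on an interferon-related list, as were 0.631% of all genes tested. The library labelled KD 3 lay within the Ctrl range in 34 of the 66 and in 28 of the 50 lower genes, against 63.5% of all genes. Among the other higher genes, Adcy3, an adenylyl cyclase, had 2199.6, 2242 and 2283 in Ctrl 1 to 3, 3009 and 3358 in KD 1 and KD 2, and 2305 in the library labelled KD 3 (log2 fold change 0.51 ± 0.08, adjusted p = 5.74e-08). Sorcs1 and Sorcs3, sorting receptors of neurons, had 548, 522 and 590.2 (Ctrl) and 967, 955 and 574 (KD) and 1659.8, 1612 and 1652 (Ctrl) and 4537, 2305 and 1738 (KD). Slc36a1, a lysosomal amino acid transporter, had 2101, 2148 and 1904 (Ctrl) and 3155, 3394 and 2021 (KD), and Me1, malic enzyme, had 2499.6, 2691 and 2765 (Ctrl) and 3405, 3546 and 2360.2 (KD). Robo3, an axon guidance receptor, had 777, 632 and 528 (Ctrl) and 1757, 1336 and 638 (KD) and Ret, the receptor of glial-derived neurotrophic factors, had 347, 377 and 281 (Ctrl) and 842, 869.9 and 257 (KD). In each of these KD 1 and KD 2 were the highest of the 6 libraries. Eif3j1 was called from KD 1 alone, at 138 and listed at 0 in the other libraries, and its reads can be split with a close copy.

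Among the 50 lower genes, Plk5, a neuronal polo-like kinase, had 718, 418 and 661 in Ctrl 1 to 3, 193 and 174 in KD 1 and KD 2, and 548 in the library labelled KD 3 (-1.71 ± 0.30, adjusted p = 1.86e-05). Slc25a23, a mitochondrial carrier, had 14351, 14568 and 15304 (Ctrl) and 10826, 10616 and 13994 (KD) and Map1a, a microtubule protein of dendrites, had 71203, 74509 and 74863 (Ctrl) and 57481, 57574 and 72608 (KD). Ccnd2, cyclin D2, had 3974, 3942 and 3297 (Ctrl) and 2519.8, 2037 and 4585 (KD), and Traf3, a signal adaptor of TNF receptors, had 4578, 4543 and 5199.8 (Ctrl) and 3651, 3255 and 4883 (KD). KD 1 and KD 2 were the lowest libraries in these 5. Tmem178b and Zc3h12b showed instead the division seen for Prox1, with 485, 449 and 89.9 (Ctrl) and 111, 78.9 and 517 (KD) and 236, 224 and 57.7 (Ctrl) and 52.7, 45.8 and 247 (KD), so that Ctrl 3 was as low as KD 1 and KD 2.

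Finally, D2 values were set beside those of B6, which has its own Ctrl libraries and whose reads were aligned to another strain's genome. For the strain by treatment interaction 0 of 15853 genes (0.0%) passed in edgeR, with 937 at an unadjusted p under 0.05, and DESeq2 called 11. In B6 edgeR called 418 genes (2.64%), from which no difference between the strains follows. Median log2 fold changes in D2 and B6 were 1.38 and 3.57 for antiviral effectors, 0.53 and 2.00 for MHC class I presentation, 0.34 and 1.59 for activated microglia and 0.20 and 0.14 for cholesterol synthesis. Of the 465 genes higher in all D2 KD libraries, 21.1% also separated upward in B6 (13.9% of all genes did), which is 4.46% of the 2198 that did so in B6. Of the 480 lower genes, 41.5% also separated downward in B6 (14.0% of all genes did), 8.98% of the 2216 there. All 50 lower and 64 of the 66 higher genes of the DESeq2 set had the same sign in B6, against 67.8% of all genes. Snurf, Suv39h2 and Cxcl5 separated in opposite directions in the strains (Cxcl5 -1.03 in D2 and 2.47 in B6).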

How the data were processed

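mRNA of hippocampus was sequenced in 12 mice, 3 in each of 4 groups, and the 6 D2 libraries are described here. In the deposited files the authors gave RSEM expected counts per gene (RSEM 1.2.12 with Bowtie2 2.2.0, each strain aligned to its own genome, per the methods and processing notes) and normalized counts, the deposited signal, which equal expected counts with decimals dropped divided by a DESeq2 size factor. Multiplying back by the size factor gave the expected counts with decimals dropped for 100% of 266784 values (tolerance 0.001). These are whole numbers from RSEM estimates and not counts of single reads. GRCm38 is the build named; the annotation release is not given in the sources used here. Reads of 2 runs were joined for most samples, and which ones is not stated. Alignment to different genomes can shift single genes between strains.

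Expected counts were rounded, and 15853 of 22236 genes passed filterByExpr. edgeR 4.0.16 (R 4.3.3) fitted quasi-likelihood models with TMM factors, robust estimation and a mean per group over all 12 libraries. P-values were Benjamini-Hochberg adjusted over all genes, with a threshold of 0.05. DESeq2 1.42.0, limma-voom 3.58.1 and the settings in the closing section were alternatives; DESeq2 without each library, truncated counts and the newer quasi-likelihood method without the library labelled D2 KD 3 were chosen after seeing the data. The steps were tested on simulated data. Single values were compared by exact permutation. Non-overlap of libraries was judged on TMM CPM, and list scores are means of log2(CPM + 1). The genes given with full values are those of a rule: Hp1bp3, up to 10 leading genes in each direction (smallest unadjusted p among non-overlapping genes of mean CPM at least 1), DESeq2 calls, 5 genes of the study, and up to 4 non-overlapping members per list. Others were chosen after their values were seen, or are defining markers given by level. The comparison, the 39 gene lists (688 genes) and the rule were chosen with earlier results of these data known. Promoters came from RefSeq by symbol and gene positions from GENCODE M21 (98.64% of identifiers matched).

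Replicates are separate animals by their names, and p-values measure the spread between them. Replicate numbers follow accession order. Depth limits precision only for the scarcest genes: totals were 18.2 M to 37.5 M. A zero count allows up to 3 counts, for counting error only.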

Additional observations from a re-analysis of the deposited data

Results flagged for a closer look

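In 3 genes of those described, every D2 KD library moved one way from every D2 Ctrl library and every B6 KD library moved the other way from B6 Ctrl. The difference between strains (D2 minus B6 log2 fold change, edgeR) was 1.22 for Snurf, 0.46 for Suv39h2 and -3.49 for Cxcl5. By the interaction test none of these passed (edgeR adjusted p of 0.821 or above), so the difference is not established. Over all 15853 genes, 34 separated in opposite directions in the strains and 297 in the same direction.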

How the results depend on the processing

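With all libraries kept, limma-voom, RLE size factors, no low count filter, total count or choroid plexus score as a covariate, estimation without robustness, the newer quasi-likelihood method, D2 libraries alone and truncated counts (expected counts with decimals dropped) each called 0 genes in D2, as edgeR did, and DESeq2 called 1. Leaving out 1 D2 library gave 0 to 1 edgeR calls. DESeq2 then called 0 (Ctrl 1), 1 (Ctrl 2), 8 (Ctrl 3), 1 (KD 1), 1 (KD 2) and 116 (labelled KD 3) genes, and the newer method 2 without that last library. For the interaction DESeq2 called 11 with all libraries and, in the same order, 11, 26, 10, 28, 69 and 4. Non-overlapping genes numbered 945, 1656 to 4054 without 1 library, and 955, 868 and 800 with RLE factors, library totals and mean CPM at least 1. Fewer libraries overlap less by construction. The Hp1bp3 difference of -1073.5 normalized counts ranged from -653.3 to -1685. Of 55 named genes, Arc changed sign, at -0.15 without the library labelled D2 KD 3 in edgeR, DESeq2 and the newer method, and its edgeR values with 1 library left out ran from -0.15 to 0.56. Among 39 list medians, 3 moved beyond 1 SD in a setting with all libraries, and 6 without Ctrl 3. Medians of 22 of the 39 lists changed sign in at least 1 of the 6 fits without a library. Without the library labelled D2 KD 3 those of blood (0.38 to -0.13) and choroid plexus (0.13 to -0.33) did, and smaller ones of homeostatic microglia and immediate early genes. The causes were not tested. No paired analysis was possible because replicate numbers follow accession order and pair no animals.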
